A study of Mus musculus with 6 samples.

Results

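The locus described here is a 100 kb window of mouse chromosome 12, mm9 positions 27100000 to 27200000, that holds the antiviral genes Rsad2 and Cmpk2. Its members were chosen by position as all deposited p300, PU.1 and H3K4me1 peaks in that window, which was itself picked with the response of p300 and PU.1 to lipopolysaccharide (LPS) there already known. Both LPS contrasts are therefore given as a description, with no test. The window held 18 of the 19879 p300 sites of the series, 14 of the 87955 PU.1 sites and 6 of the 84743 H3K4me1 peaks. A site is a deposited peak, or peaks of the LPS and untreated lists joined where they shared at least 1 bp.

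The cells were primary macrophages grown from bone marrow of female Fvb mice for 7 days in medium conditioned by L929 cells. They were stimulated with LPS at 10 ng/ml for 2 h or left untreated, and the number of animals behind each culture is not given in the labels. Chromatin was precipitated with antibodies to p300 (2 biological replicates with LPS, 2 untreated) or to PU.1 (1 library with LPS, 1 untreated), and in untreated cells to the enhancer mark H3K4me1, histone H3 carrying 1 methyl group on lysine 4 (1 library). Input, chromatin sequenced without precipitation, came from untreated cells (1 library). No RNA was measured, so the cell type rests on its label and expression of the genes is unknown.

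Rsad2 encodes viperin, a radical-SAM enzyme of the endoplasmic reticulum and lipid droplets that makes a chain-terminating CTP analogue and restricts many viruses. Cmpk2 encodes a mitochondrial nucleoside monophosphate kinase that phosphorylates CMP, UMP and their deoxy forms. The genes lie next to each other and are transcribed away from each other, and both are known to be strongly induced by type I interferon and by LPS in macrophages. p300 is a histone acetyltransferase found at active enhancers and promoters, PU.1 is an ETS-family factor that defines the macrophage lineage, and H3K4me1 marks enhancers. In RefSeq's GRCm38.p6 gene order Rsad2 is followed directly by Cmpk2, with Mir6538 and Rnf144a on the other side of Rsad2 and the pseudogene Gm46344 beyond Cmpk2.

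Positions of the genes on mm9 were known only to about 1 kb. Rsad2, on the minus strand, lies near 27127000 to 27141000 with its start at the upper end, and Cmpk2, on the plus strand, starts near 27154000. p300 peaks of the LPS list covered both approximate starts. For that reason the 300 bases around each start, 250 before and 50 after, are shown from RefSeq. They come from GRCm38.p6, chromosome 12, each on its gene's own strand, 5′ to 3′. Whether the peaks cover these exact bases was not established. Capitals mark matches to an interferon-stimulated response element core or an AP-1 motif.
Rsad2: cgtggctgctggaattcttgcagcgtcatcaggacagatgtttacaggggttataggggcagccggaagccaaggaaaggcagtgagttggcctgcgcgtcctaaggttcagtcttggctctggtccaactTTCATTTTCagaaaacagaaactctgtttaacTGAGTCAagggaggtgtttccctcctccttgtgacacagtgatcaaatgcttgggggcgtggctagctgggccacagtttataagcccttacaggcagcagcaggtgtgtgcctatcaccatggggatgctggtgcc
Cmpk2: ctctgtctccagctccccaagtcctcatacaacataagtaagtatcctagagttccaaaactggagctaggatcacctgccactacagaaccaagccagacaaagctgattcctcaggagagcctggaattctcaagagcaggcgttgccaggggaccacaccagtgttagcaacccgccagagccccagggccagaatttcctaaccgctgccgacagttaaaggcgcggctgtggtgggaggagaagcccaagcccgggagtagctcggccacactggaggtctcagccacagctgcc

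Motifs were searched on both strands as GAAANNGAA (response element core bound by IRF factors and ISGF3), TGANTCA (AP-1), GGAAGT (ETS core, as bound by PU.1), GGAANNGAA (PU.1 and IRF together) and TTNNGNAA (C/EBP). The Rsad2 promoter held 1 response element core, on the strand opposite to the one printed, starting 119 bases before the gene start, and 1 AP-1 match, the same on both strands, starting 87 bases before it. Of the 32851 promoters in the table, 8.56% held the response element core and 7.81% the AP-1 motif. The Cmpk2 promoter held neither. The ETS core, found in 23.8% of promoters, and the composite motif, in 8.24%, had no match in either window. Each promoter held 2 C/EBP matches, where 40.7% of promoters held at least 1, and those of Rsad2 overlap each other and the response element core. A match is a run of letters and not a measured binding site, and no sequence of the peaks themselves was read.

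The libraries held 5503587 to 6428281 distinct reads on chromosomes 1 to 19 and X. The p300 libraries differed in enrichment, with 2.84% and 6.46% of distinct reads in p300 sites in LPS replicates 1 and 2, 1.89% and 7.16% in untreated replicates 1 and 2, and 1.29% in input. Normalised p300 reads are reads divided by a library factor, the median of ratios over all p300 sites. This factor follows enrichment, and under it the median 100 kb tile of the genome had an LPS to untreated ratio of 0.762, against 1.00 with total reads. Where whole stretches are compared, reads are scaled to each library's distinct reads as RPM (reads-per-million). Intervals are exact 95% intervals that cover counting error only.

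The locus carried many called p300 peaks after LPS and none in untreated macrophages. The LPS list had 18 p300 peaks in the window and the untreated list had 0. In the whole genome 38.1% of p300 sites had a peak in the LPS list alone. Read counts from the same libraries are given next. p300 gave 114 and 248.9 RPM in the window in LPS replicates 1 and 2, and 48.4 and 53.9 in untreated replicates 1 and 2, while input gave 55.2. The untreated p300 libraries thus lay at the level of input over the window, and both LPS libraries lay above all of them. Inside the 18 sites, LPS replicates 1 and 2 had 386 and 1073 reads and untreated replicates 1 and 2 had 80 and 135, beside 96 in input. All 18 sites entered through the LPS list alone, which was called from these libraries. Their read counts are therefore no separate support for a difference.

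**Figure D1:**
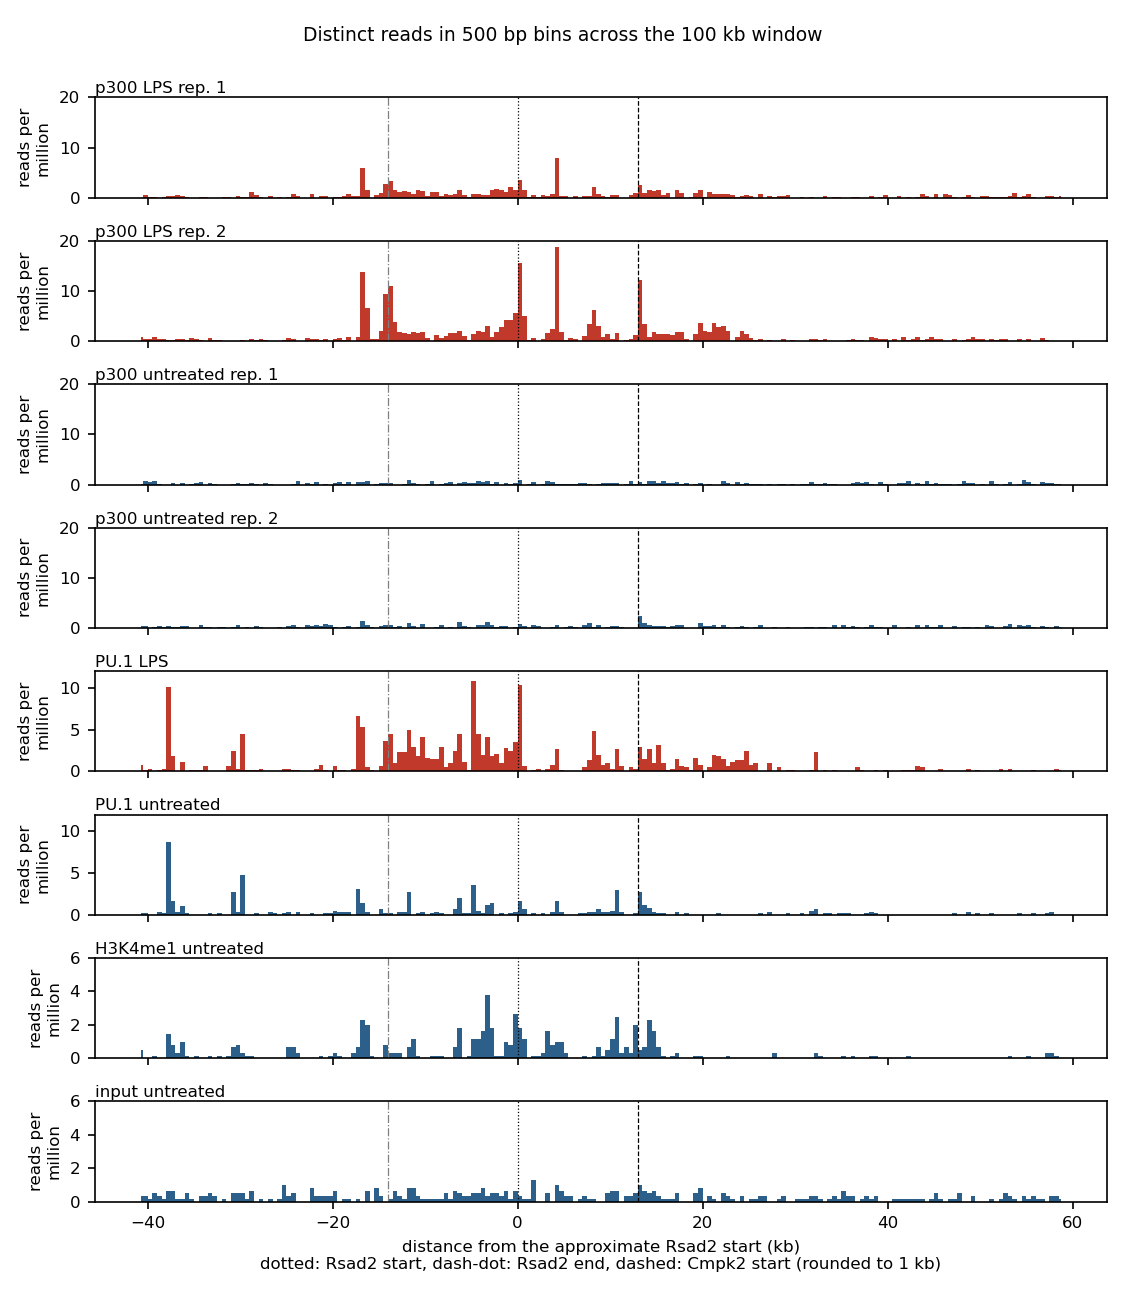
Distinct reads as RPM in 500 bp bins across the window, by distance in kb from the approximate Rsad2 start, with 1 track per library; the vertical scale is 20 for p300, 12 for PU.1 and 6 for H3K4me1 and input. In both LPS libraries the highest p300 bin lies 4.25 kb from the Rsad2 start, between the genes, at 7.99 and 18.8 RPM. At the Cmpk2 start LPS replicates 1 and 2 reach 2.54 and 12.2 RPM, and untreated replicate 2 has its highest bin, at 2.37 RPM.

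The p300 sites stretched over 41.5 kb, from 27123941 to 27165396, and covered 20.6 kb of it (49.6%). They were wide, with a median of 935 bp against 487 bp over all p300 sites. The 4 sites with most reads held 59.0% of the LPS reads of the 18 (861 of 1459 reads, 56.4 to 61.6%). The window was compared with every other 100 kb tile of the genome, as a description of a place picked for its response. It had the most LPS p300 peaks of 26398 tiles, ahead of 16 in the next. Its ratio of p300 reads, LPS to untreated, was 2.44 with normalised reads and 3.55 with total reads as library size. Both ranked 1 of the 24461 tiles with at least 200 p300 reads, and the next tile had 1.84 with normalised reads. With normalised reads the ratio leaned on single untreated libraries. On the log2 scale it was 1.29, with 2.35 without untreated replicate 1 and 0.68 without untreated replicate 2. The library factors of untreated replicates 1 and 2 were 0.538 and 1.76, while their RPM over the window were 48.4 and 53.9. The libraries numbered 1 had 4.03% repeat reads with LPS and 3.02% untreated, and those numbered 2 had 25.8% and 22.0%, so the ratio is also given within each number. With normalised reads it was 1.58 for replicate 1 and 5.19 for replicate 2, above 1 in both. With total reads it was 2.37 and 4.62. Over the 18 sites it was 3.76 and 9.11 with normalised reads, and 5.64 and 8.11 with total reads.

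**Figure D2:**
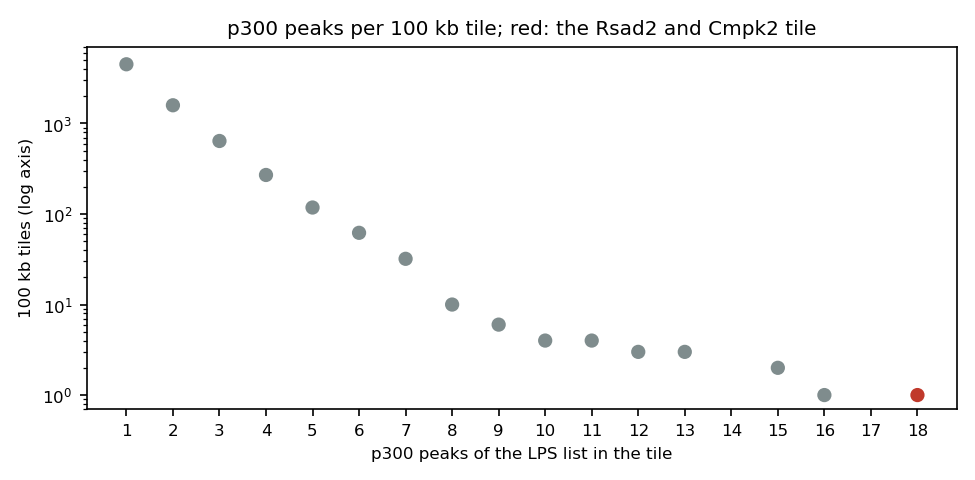
Number of 100 kb tiles of the genome (log axis) by the number of p300 peaks of the LPS list centred in them, for tiles with at least 1. The Rsad2 and Cmpk2 tile, in red, stands alone at 18 peaks, and the next tile has 16.

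The site over the Rsad2 start had the most p300 reads in all, being the widest. Site 8 of the window, chr12:27138491-27141886, 3396 bp wide, had 72 and 228 reads in LPS replicates 1 and 2 and 14 and 13 reads in untreated replicates 1 and 2, with 17 in input. Both LPS libraries lay above both untreated ones also after scaling, with 127 ± 31.4 normalised reads after LPS and 16.7 ± 13.2 untreated (mean ± SD, n = 2 each), a ratio of 7.57. Per kb it had 88.3 LPS reads, against 174.6 at site 9 and 157.5 at site 1. Its peak ranked 26 by the authors' score among the 12237 LPS p300 peaks. The ratio moved with single untreated libraries, to 17.1 without untreated replicate 1 and 4.86 without untreated replicate 2. Within same-numbered replicates it was 4.01 for replicate 1 and 20.1 for replicate 2.

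At the far end of Rsad2, site 2, chr12:27126348-27128891, had 57 and 170 reads in LPS replicates 1 and 2, against 7 and 10 in untreated replicates 1 and 2. The LPS libraries again lay apart from the untreated ones, at 96.7 ± 20.0 and 9.35 ± 5.18 normalised reads (SD, n = 2 each), a ratio of 10.3. Without untreated replicate 1 it was 17.0, and without untreated replicate 2 it was 7.43. The log2 ratio of 3.37 was 4.99 in the central 500 bp. A further site lay beyond the gene's end. Site 1, chr12:27123941-27124962, had 42 and 119 reads in LPS replicates 1 and 2 and 7 and 12 in untreated replicates 1 and 2. This gave 69.2 ± 11.8 normalised reads after LPS and 9.92 ± 4.37 untreated (SD, n = 2 each), a ratio of 6.98.

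Between the gene starts lay the site with the highest ratio among those with reads in both untreated libraries. Site 9, chr12:27144542-27145532 had 49 and 124 reads in LPS replicates 1 and 2, against 4 and 5 in untreated replicates 1 and 2. Input had 6 reads there, no fewer than either untreated p300 library. Normalised reads were 75.9 ± 6.98 after LPS and 5.14 ± 3.25 untreated (SD, n = 2 each), a ratio of 14.8, the highest among the 15 sites with reads in both untreated libraries. Without untreated replicate 1 it was 26.7, and without untreated replicate 2 it was 10.2. The log2 ratio of 3.88 was 5.82 in the central 500 bp, which holds at most the 4 and 5 untreated reads of the site. Site 11, chr12:27149086-27149864, had 15 and 50 LPS reads and 0 and 3 untreated reads. Its ratio of normalised reads, 31.8, was the highest of all sites in the window but rests on these few untreated reads. The ratio from summed reads was 22.4 with an interval of 7.32 to 111, against 19.8 (10.2 to 44.1) at site 9.

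Cmpk2 had the smallest relative difference of these. Site 12, chr12:27153723-27155220, over its start, had 27 and 100 reads in LPS replicates 1 and 2 and 8 and 23 in untreated replicates 1 and 2. Input had 13 reads. Normalised reads were 52.2 ± 18.5 after LPS and 13.98 ± 1.26 untreated (SD, n = 2 each), a ratio of 3.73, and no single library moved it by over 1.5 times. This site also had the most reads of untreated replicate 2 in the window. Downstream of it, sites 13 to 18 ran to 27165396. The one with most LPS reads was site 16, with 12 and 42 in LPS replicates 1 and 2 and 1 and 8 in untreated replicates 1 and 2. Its ratio was 6.98, with 4.92 without untreated replicate 1 and 12.04 without untreated replicate 2. Site 17, chr12:27162703-27163933, had 11 and 40 LPS reads and 7 and 5 untreated reads, a ratio of 2.65, against 7.38 with untreated replicate 1 left out and 1.61 with untreated replicate 2 left out. Within same-numbered replicates it was 1.22 and 9.17.

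Smaller p300 sites filled the body of Rsad2. Site 3, chr12:27129987-27131089, had 17 and 23 reads in LPS replicates 1 and 2 and 2 and 5 in untreated replicates 1 and 2, a ratio of 6.04. Site 5, chr12:27134337-27135115, had 13 and 15 against 3 and 7, a ratio of 2.99. Site 7, chr12:27137569-27138397, had 12 and 22 against 4 and 10, a ratio of 2.42. In each of these the LPS libraries lay above the untreated ones on the normalised scale. Each of these ratios, and that of site 6 (1.503), was below those at the gene's ends, 7.57 at site 8 and 10.3 at site 2. Site 4, chr12:27132097-27132551, had 7 and 9 LPS reads against 0 and 1 untreated, a ratio of 28.1, above both ends. It rests on these few untreated reads, and the ratio from summed reads was 16.5 with an interval of 2.57 to 692. Without untreated replicate 2, site 3 had 5.33, against 4.86 at site 8. Summed over the 5 sites inside Rsad2 (3 to 7), p300 had 56 and 90 reads with LPS and 16 and 28 untreated. The 3 sites between the genes (9 to 11) summed to 67 and 196 reads with LPS and 5 and 15 untreated.

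**Figure D3:**
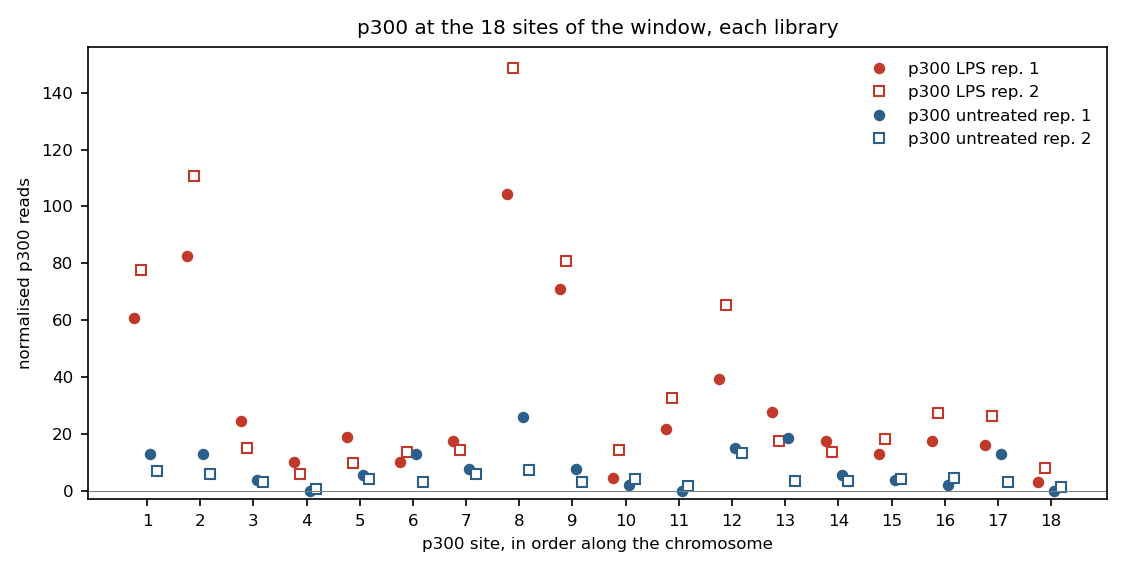
Normalised p300 reads at the 18 sites, numbered along the chromosome, with 1 symbol per library (circles replicate 1, squares replicate 2; red LPS, blue untreated). Sites 1, 2, 8 and 9 stand highest after LPS, and at sites 6 and 13 the LPS and untreated libraries overlap.

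At 16 of the 18 sites both LPS replicates lay above both untreated replicates, against 26.9% of the 19727 p300 sites with at least 10 reads. The 18 were picked from a window known for this contrast, so nothing is read from that share. On the normalised scale the exceptions were sites 6 and 13. Site 6, chr12:27136663-27137348, had 7 and 21 LPS and 7 and 5 untreated reads. Site 13, chr12:27155504-27156889, had 19 and 27 LPS and 10 and 6 untreated reads. With total reads as library size both met the rule and the count was 17. The exception was then site 10, chr12:27148439-27149060, with 3 and 22 LPS and 1 and 7 untreated reads. Over the 15 sites with reads in both untreated libraries the ratio ran from 1.503 to 14.8 with a median of 3.73. The other 3 (sites 4, 11 and 18) had no read in untreated replicate 1 and 1, 3 and 2 in untreated replicate 2. The median log2 ratio of the 18 was 2.31, beside -0.04 over all p300 sites tested. The library factor is a median over these same p300 sites, so the genome-wide value is largely set by the scaling. Leaving out LPS replicate 1 moved 1 of the 18 ratios by over 1.5 times and leaving out LPS replicate 2 moved 2. Leaving out untreated replicate 1 moved 9, with 6 of them up, and leaving out untreated replicate 2 moved 6 of the 15 that then had a value, with 4 of them down. Site 6 had a ratio of 1.503, against 4.19 with untreated replicate 1 left out and 0.916 with untreated replicate 2 left out. Site 13 had 2.05, against 6.61 and 1.21 under the same omissions. Within same-numbered replicates site 13 was higher with LPS in both, by 1.48 and 5.16 times, and site 6 was 0.779 in replicate 1 and 4.81 in replicate 2.

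The strongest sites differed in how many of their reads fell in 1 place. At site 9 the densest 200 bp held 121 of the 173 LPS p300 reads (69.9%, 62.5 to 76.7%), and at site 1 they held 60.2% (52.2 to 67.9%). At the Rsad2 start, site 8, they held 54 of the 300 LPS reads (13.8 to 22.8%), and at the Rsad2 end, site 2, 17.6% (12.9 to 23.2%). These shares depend on site width, since sites 8 and 2 are 3396 and 2544 bp wide and sites 9 and 1 are 991 and 1022 bp wide. Against an even spread over the site, the densest 200 bp held 3.47 times as many reads at site 9, 3.08 at site 1, 3.06 at site 8 and 2.24 at site 2. The densest 200 bp of PU.1 after LPS lay close by at the 6 sites with most p300 reads, offset by -62 to 49 bp, and over the other 12 sites the offsets ran from -355 to 628 bp.

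PU.1 was called at the locus with and without LPS. The header of the peak list labelled untreated also names LPS, and the sample labels were followed here. The window had 9 PU.1 peaks in the LPS list and 11 in the untreated list, which formed 14 sites, 6 in both lists, 3 in the LPS list alone and 5 in the untreated list alone. The strongest untreated site, chr12:27103278-27103644, lay before the first p300 site. It had 69 PU.1 reads with LPS and 59 untreated, a ratio of 1.12 (0.78 to 1.62), and 2 p300 reads in all with LPS and 4 untreated. Its neighbours at 27109889 and 27111016 had 17 and 27 reads with LPS and 16 and 28 untreated. At these 3 sites the PU.1 libraries differed by less than counting error, and p300 had at most 2 reads in any library.

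At 6 of the 14 sites PU.1 was past 2-fold higher with LPS, and at 0 past 2-fold lower, against 9.90% and 9.68% of the 85502 PU.1 sites with at least 10 reads. The window was picked with this contrast known, so nothing is read from these shares. The interval lay above 1 at the same 6 and held 1 at the other 8. The site at the Rsad2 end, chr12:27126600-27127492, had 49 reads with LPS and 1 untreated, a ratio of 47.1 (8.06 to 1897) that rests on the single untreated read. At the Rsad2 start, chr12:27140558-27141663, PU.1 had 87 reads with LPS and 16 untreated, a ratio of 5.22 (3.04 to 9.54), and its log2 ratio of 2.39 was 3.29 in the central 500 bp. Between the genes, chr12:27149236-27149663 had 38 reads with LPS and 5 untreated, 7.30 (2.87 to 23.8), where p300 site 11 also lies.

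**Figure D4:**
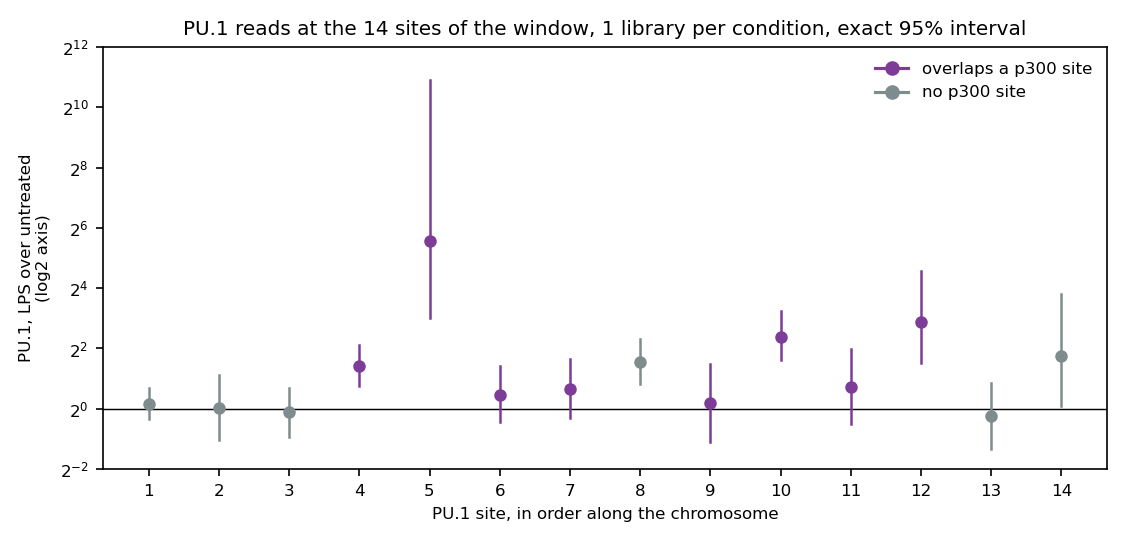
Ratio of PU.1 reads, LPS over untreated (log2 axis), at the 14 PU.1 sites along the chromosome, with exact 95% intervals for counting error; purple sites overlap a p300 site. Sites 4, 5, 8, 10, 12 and 14 have intervals above 1, and sites 1 to 3 lie near 1.

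The other sites past 2-fold were chr12:27123730-27124625 at p300 site 1, with 75 reads with LPS and 27 untreated (2.67, 1.70 to 4.31), chr12:27135940-27136548 inside Rsad2, with 67 and 22 (2.93, 1.78 to 4.98), and chr12:27173077-27173364, with 14 and 4 (3.36, 1.06 to 14.03). At some sites with much p300 the interval of the PU.1 ratio held 1. p300 site 9, with a p300 ratio of 14.8, had 21 PU.1 reads with LPS and 11 untreated, a ratio of 1.83 (0.85 to 4.21). The Cmpk2 start had 34 PU.1 reads with LPS and 28 untreated, 1.17 (0.69 to 2.00), and no PU.1 peak in either list. Summed over PU.1 sites that overlap a p300 site, PU.1 had 331 reads with LPS and 104 untreated (3.06, 2.45 to 3.85), and over those that do not 209 and 146 (1.38, 1.11 to 1.71).

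Called PU.1 peaks lay on some of the p300 sites. An LPS PU.1 peak overlapped 4 of the 18, against 50.2% of all p300 sites, and an untreated PU.1 peak overlapped 6, against 48.5%. At 11 sites neither list had one, against 47.0% of all. PU.1 reads were present there. These 11 sites together had 220 PU.1 reads with LPS and 46 untreated, a ratio of 4.60 (3.33 to 6.46). Among the window's p300 sites, 16 reached 10 PU.1 reads, and 14 of them were past 2-fold higher with LPS, against 9.97% of the 12201 such sites in the genome. The window was picked with this contrast known, so nothing is read from that share. Some sites also reached 10 reads mostly through the LPS library, such as site 17 with 23 reads with LPS and 1 untreated. At site 16, chr12:27161389-27162676, downstream of the Cmpk2 start, PU.1 had 16 reads with LPS and 0 untreated, at least 5.12-fold higher when 3 reads are set as the floor of the untreated library.

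PU.1 reads also lay between the sites, where nothing was called. Inside Rsad2 but outside all p300, PU.1 and H3K4me1 sites, 4592 bp held 76 PU.1 reads with LPS and 2 untreated (36.5, 9.77 to 307). From the Cmpk2 start to the last p300 site such stretches of 4189 bp held 36 with LPS and 1 untreated (34.6, 5.82 to 1404). Between the gene starts uncalled stretches of 8912 bp held 31 PU.1 reads with LPS and 16 untreated, and here the interval held 1 (1.86, 0.99 to 3.64). p300 in the gaps had 23 and 46 reads in LPS replicates 1 and 2 and 16 and 11 in untreated replicates 1 and 2 inside Rsad2, and 20 and 32 against 14 and 6 downstream of the Cmpk2 start. In the flank before the first p300 site, uncalled stretches had 59 PU.1 reads with LPS and 41 untreated (1.38, 0.91 to 2.11), and in the flank after the last they had 72 and 27 (2.56, 1.63 to 4.15). p300 had 60 and 81 reads with LPS and 58 and 61 untreated in the first flank, and 90 and 107 with LPS and 96 and 76 untreated in the other. As RPM per kb, LPS replicates 1 and 2 had 0.484 and 0.620 in the first flank, and untreated replicates 1 and 2 had 0.401 and 0.458. In the other flank these were 0.477 and 0.537 against 0.435 and 0.374. Both LPS libraries thus lay above both untreated ones in each flank on this scale. The p300 ratio, LPS to untreated, was 1.29 and 1.25 there with total reads, and 0.98 and 0.90 with normalised reads. In 10 kb bins of the genome without any peak PU.1 gave 0.114 RPM per kb with LPS and 0.104 untreated. The source of the reads between sites was not tested, and input of LPS-treated cells was not analysed here.

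H3K4me1 was measured only before LPS, and part of the locus carried it. Its 6 peaks lay at p300 site 1 (2 peaks), inside Rsad2, at the Rsad2 start, between the genes and just past the Cmpk2 start. The peak inside Rsad2, chr12:27137438-27138425, had 35 reads and input 5, a ratio of 6.95 (2.71 to 22.7). At the Rsad2 start, chr12:27140664-27141196, there were 21 H3K4me1 and 3 input reads (6.95, 2.07 to 36.4), and past the Cmpk2 start, chr12:27154877-27155345, 17 and 1 (16.9, 2.64 to 705). Over the whole window H3K4me1 had 383 reads and input 334 (1.14, 0.98 to 1.32). This depends on the library size used, and the log2 ratio was 0.19 with total reads and 2.31 with reads in bins without any peak.

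An H3K4me1 peak overlapped 4 of the 18 p300 sites, against 48.0% of all p300 sites. Within 1 kb of the site centre H3K4me1 was past 2-fold over input at 7 of the 18, against 54.6% of all. These were sites 1, 6, 7, 8, 11, 12 and 13, with log2 ratios from 1.03 to 2.41. With peak-free bins as library size the count was 14, against 75.0% of all. The far downstream sites had the lowest ratios. Sites 14 to 18 had 3, 2, 0, 1 and 0 H3K4me1 reads within 1 kb, and 5, 8, 3, 6 and 2 input reads. H3K4me1 was below input at all 5 with total reads as library size, and with peak-free bins the log2 ratio was 1.09 at site 14, 0.092 at site 15 and from -1.29 to -0.33 at sites 16 to 18. The median log2 ratio was 0.55 over the 18 sites and 1.37 over all p300 sites. With no p300 peak before LPS, 10 of the 18 sites had no LPS PU.1, untreated PU.1 or H3K4me1 peak either, against 39.4% of all p300 sites.

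**Figure D5:**
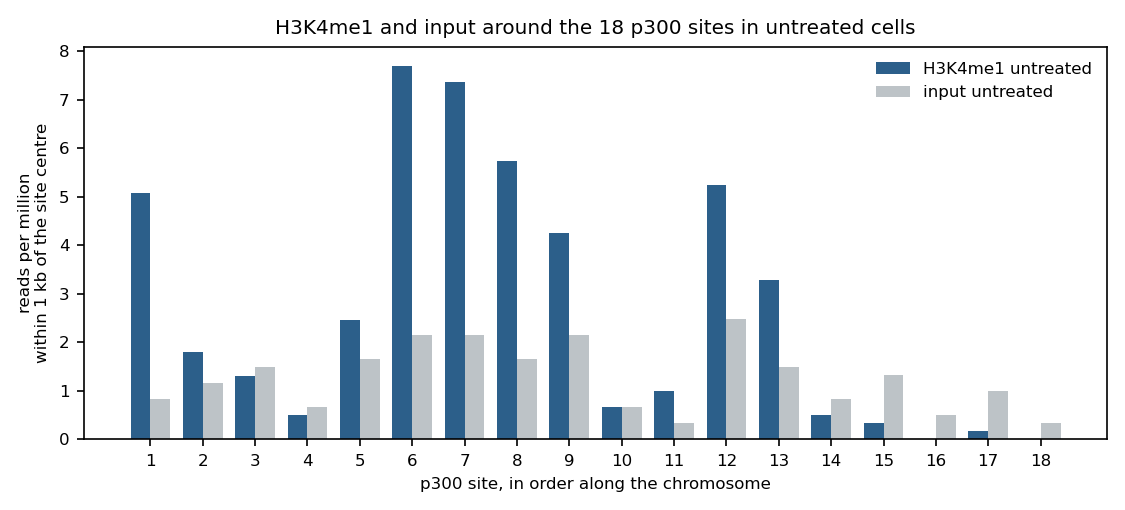
Reads (RPM) within 1 kb of the centre of each of the 18 p300 sites in untreated cells, H3K4me1 (blue) beside input (grey), 1 library each. H3K4me1 exceeds input most at sites 1, 6, 7 and 8, and lies below it at sites 14 to 18.

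The nearest peaks outside the window were these. The nearest p300 peak before it, 16.1 kb from the edge at chr12:27083450-27083854, was called in both lists, with 7 and 27 reads in LPS replicates 1 and 2 and 5 and 24 in untreated replicates 1 and 2. The nearest after it, 2.88 kb away at chr12:27202885-27203155, was in the LPS list alone, with 4 and 6 LPS and 1 and 2 untreated reads. The next untreated p300 peak on that side lay 980.4 kb away. The nearest PU.1 peaks before the window were 10.2 kb away in the LPS list and 4.31 kb away in the untreated list. After it, the nearest in the LPS list was 9.80 kb away, with 15 PU.1 reads with LPS and 4 untreated, and the nearest in the untreated list was 2095 kb away. H3K4me1 peaks were 13.2 kb away before it and 2119 kb away after it.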

How the data were processed

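Aligned reads and peak lists were deposited by the authors on mm9, per the submitters' processing notes. The read files give 1 line per read of 36 bp. The aligner and its settings are not given in the sources used here. Per the file headers, the authors' peak caller was MACS, and their deposited column notes give the score as 10 times the -log10 p-value. The same headers name the control library as naked for p300, random for PU.1 and input for H3K4me1, and p300 lists pool both replicates, per the series' design text.

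Reads were counted here (Python 3.11.15, numpy 2.4.6, pandas 2.3.3, scipy 1.17.1), keeping 1 read per position and strand, with 5′ ends moved 100 bp downstream. Coordinates are as deposited. Library size for p300 was a median of ratios across its own sites, and for PU.1, H3K4me1 and input it was total distinct reads, and 1 read was added for log2 ratios of H3K4me1 to input. Between 2 libraries, 95% intervals are exact and condition on the summed reads. Counting, overlap and interval code was tested on simulated data.

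No test across libraries was made, because the window was proposed from the LPS contrasts and PU.1, H3K4me1 and input have 1 library per group. Members and lists were chosen with earlier results of these data known. Named sites are all those in the window, the nearest peaks outside it and the 5 p300 sites elsewhere, with at least 40 p300 reads, nearest in log2 normalised reads. Gene positions on mm9 were used to about 1 kb, since the RefSeq tables are on GRCm38.p6. A list of other interferon-induced genes needed positions on mm9 and was not used. Alternatives were other scalings, all reads kept, a 50 bp shift, sites of 500 bp, an authors' score of at least 100, a stricter overlap and leaving out each p300 replicate.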

Additional observations from a re-analysis of the deposited data

How the results depend on the processing

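No model was fitted, and the main ratios and SDs do not use the replicate numbers. The sample labels do not pair the replicates, whose numbers come from the read files. Ratios within same-numbered replicates, chosen after seeing the data, averaged 1.52 on the log2 scale for p300 in the window and 2.55 over its 18 sites, and 17 of the 18 sites were higher with LPS within both numbers. Over 19727 p300 sites the difference between replicates 1 and 2 correlated at 0.233 between LPS and untreated libraries, after 1 read was added. Values here are log2 ratios. The p300 ratio of the whole window with normalised reads was 1.29, and 0.68 to 2.35 when 1 library was left out. It was lowest without untreated replicate 2 and highest without untreated replicate 1. With total reads as library size it was 1.83. Pooled over the 18 sites it was 2.48, and 2.08 to 3.03 under all alternatives. H3K4me1 over input was 0.19 for the window and 2.70 for its 6 peaks, and 2.31 and 4.73 with bins without any peak as library size, which by construction hold little H3K4me1. With these bins, also tried after seeing the data, H3K4me1 was past 2-fold over input at 14 of the 18 p300 sites, against 7. An LPS PU.1 peak covering at least 50% of the p300 site was found at 2 sites, against 4 by any overlap. Signs turned at p300 site 6 (0.59, and -0.13 to 2.07 with 1 library left out) and at PU.1 sites with ratios near 1. These were site 2 (0.03, and -0.11 with background bins), site 3 (-0.11, and 0.015 with all reads) and site 13 (-0.24, and 0.053 with all reads). The other settings tried for the window and the pooled sites moved by less than the replicate spread or counting interval. Counts of sites have no such spread, and under the other settings they moved by less than 1.5 times. The sites behind a count could differ, as with p300 sites 6, 10 and 13 under total reads. The cause of these shifts was not tested. Depth limits the sites with few reads, such as p300 site 18, where the ratio from summed reads was 7.22 with an interval of 1.66 to 65.5.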

Other observations

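The p300 sites elsewhere in the genome whose read counts over the 8 libraries were most like those of the Rsad2 start were measured by Euclidean distance of log2 normalised reads, among 8627 sites with at least 40 p300 reads (median distance 5.87). The nearest, chr5:92775895-92778254 at distance 0.876, had 48 and 182 p300 reads with LPS and 11 and 12 untreated, and 149 PU.1 reads with LPS and 21 untreated. It was followed by chr7:129608438-129610376 (1.45), chr19:34714629-34716006 (1.61), chr1:107760612-107762760 (1.97) and chr5:115372500-115375029 (2.13). None of the 5 overlapped an untreated p300 peak, with p300 ratios, LPS to untreated, from 5.37 to 10.96, and PU.1 ratios from 2.94 to 6.82. The fifth had no PU.1 or H3K4me1 peak, and the other 4 had both, with PU.1 called in each list. The Rsad2 start itself had 7.57 for p300 and 7.42 for PU.1. These sites were selected for likeness, so their values are a description only.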
